A study of Mus musculus with 12 samples.

Results

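The response of the young mouse striatum to intracerebral hemorrhage (ICH) was described across all expressed genes, by comparing 3 young ICH samples with 3 young sham samples, 6 of the 12 samples of the series. Membership follows the sample labels. All mice of both groups were wild-type males of 8 to 10 weeks, of the C57BL/6 strain. ICH was induced by an injection of type IV collagenase into the striatum, the sham group received saline instead, and tissue around the hematoma in the ipsilateral caudate putamen was taken after 24 h. The series also holds 3 aged ICH and 3 aged sham samples (20 to 22 months), which entered the statistical model and are otherwise used only for a comparison of the 2 ages near the end. Tissue of 2 or 3 mice was pooled for each sample, and errors therefore describe pools, not single mice. Collagenase breaks down the matrix of vessel walls, and effects of the enzyme and of the blood cannot be told apart in this design.

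After ICH, plasma proteins such as thrombin and fibrinogen enter the tissue, red cells lyse, and heme is broken down to iron, carbon monoxide and biliverdin. Astrocytes and microglia take on reactive states, endothelial cells are activated, and leukocytes arrive from the blood. The striatum consists mainly of inhibitory projection neurons, which express dopamine receptors of either the D1 or the D2 type and receive glutamatergic input from the cortex.

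The reads counted on genes totalled 31490195 to 37785160 per young sham sample and 29861058 to 33943437 per young ICH sample, and 29642 to 30634 genes had a count in a young sample. Between samples of the same group, the correlation of log2 CPM (the count of a gene relative to the normalized library size) across genes was 0.988 to 0.99 for sham and 0.977 to 0.985 for ICH. Genes of the mitochondrial genome took 4.92 to 5.52% of the counts in sham and 6.35 to 7.16% in ICH samples. Defining genes of the striatum were abundant in all samples, with Ppp1r1b (DARPP-32) at 334 to 588 CPM in sham and 137 to 399.5 CPM in ICH, and so was Slc17a7, a marker of cortical excitatory neurons, at 834 to 988 CPM in sham and 514 to 1001 CPM in ICH. The mean log2 CPM of 25 genes of striatal projection neurons was 7.95, 7.55 and 7.44 in sham replicates 1 to 3 and 6.92, 6.32 and 7.29 in ICH replicates 1 to 3. Young ICH replicate 3 stood apart in markers of the choroid plexus, the tissue that makes cerebrospinal fluid. The 10 choroid plexus markers summed to 4215 CPM in this sample, to 10.9 and 58.9 CPM in the other ICH samples and to 56.2 to 511 CPM in sham samples. The 9 ependymal markers summed to 81.1 CPM in the same sample and to 18.7 to 34.9 CPM in the others. None of these 19 markers passed the test between the groups, and the part of these differences between samples in the results below was not tested beyond leaving out single samples.

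**Figure D1:**
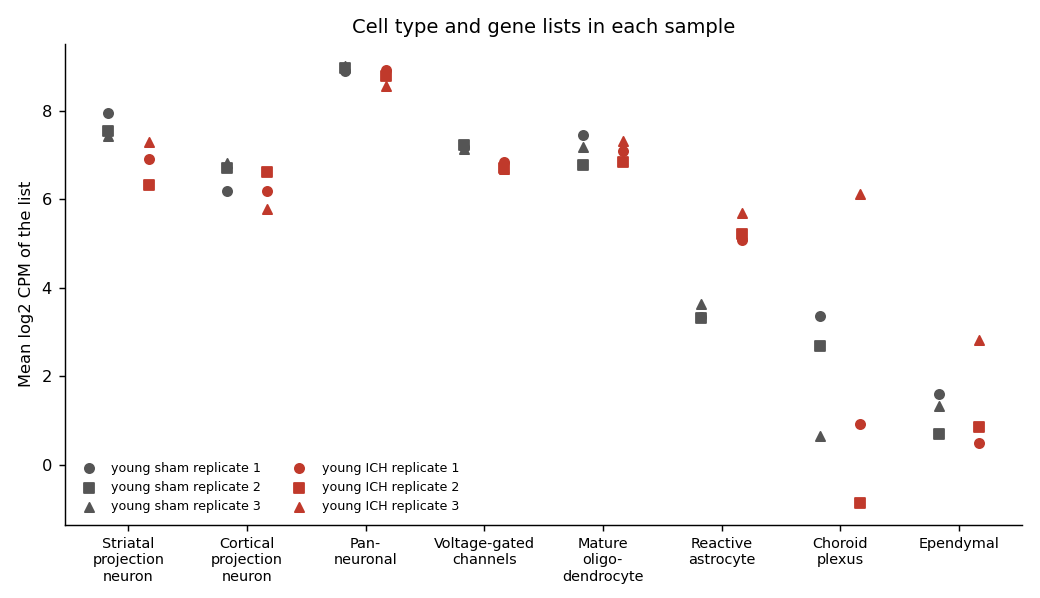
Mean log2 CPM (vertical axis) of 8 gene lists in each of the 3 young sham samples (gray) and the 3 young ICH samples (red), with a marker shape for each replicate number. The reactive astrocyte, channel and striatal projection neuron lists separate the groups. For the projection neuron list the margin is narrow, with 7.29 in young ICH replicate 3 and 7.44 in young sham replicate 3. The choroid plexus list is at 6.12 in young ICH replicate 3 and between −0.86 and 3.37 in the other samples.

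Of the 21495 genes tested, 2125 (9.89%) were higher and 1985 (9.23%) lower in young ICH than in young sham mice at an adjusted *P* under 0.05, and these genes are called differentially expressed genes (DEGs) in the following. The rises were larger than the falls. The median log2FC (log2 fold change, ICH vs. sham) was 0.69 over the upregulated and −0.39 over the downregulated DEGs, and 0.02 over all genes tested. A fold change above 2 was reached by 661 upregulated and 107 downregulated DEGs, and one above 4 by 183 and 7. In 4035 of the 4110 DEGs, the 3 samples of one group all lay above the 3 samples of the other. Since the test selects such genes, this count is a description, and over all genes tested, DEGs included, 35% (7527) had groups without overlap. The number of DEGs depended on single samples, with 965 upregulated and 893 downregulated without young sham replicate 2, 1284 and 1127 without young ICH replicate 3, and 1383 and 1299 without young sham replicate 3. Protein-coding genes made up 1842 of the upregulated and 1858 of the downregulated DEGs, out of 15680 tested.

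**Figure D2:**
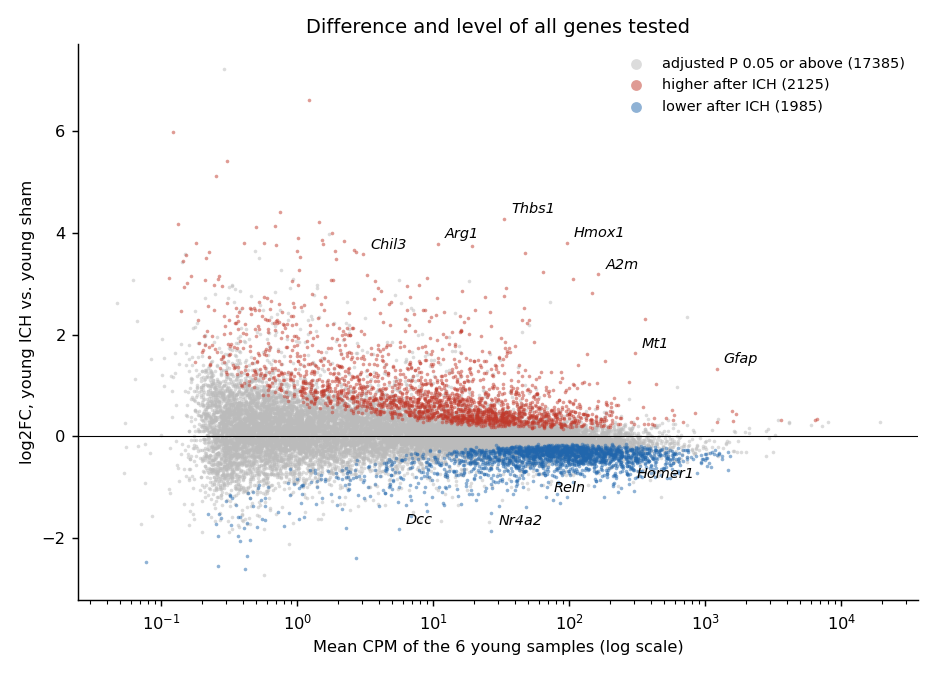
The log2FC of young ICH vs. young sham (vertical axis) against the mean CPM of the 6 young samples (horizontal axis, log scale) for the 21495 genes tested, with the 2125 upregulated DEGs in red and the 1985 downregulated DEGs in blue. Rises reach further from 0 than falls, with 183 DEGs above a 4-fold rise and 7 beyond a 4-fold fall.

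Among DEGs with a mean of at least 5 CPM in the higher group and no overlap between the groups, the largest rise was that of Thbs1, which encodes the matrix protein thrombospondin 1 (chromosome 2, 118111876 to 118127133, plus strand, GRCm38). Thbs1 was at 3.26, 4.03 and 2.44 CPM in the sham samples and at 44, 65.6 and 80.3 CPM in the ICH samples, a log2FC of 4.28 ± 0.45 (SE, adjusted *P* = 0.000745). Hmox1, the heme oxygenase that opens the heme ring, rose from 7.32, 16.2 and 14.9 CPM to 146, 173 and 219 CPM (log2FC 3.81 ± 0.68, adjusted *P* = 0.00403). Arg1, the arginase of alternatively activated macrophages, rose from 0.774, 2.44 and 1.19 CPM to 16.1, 17.1 and 27.4 CPM (log2FC 3.79 ± 0.72, adjusted *P* = 0.0052). In each of the 3 genes the lowest ICH sample lay several-fold above the highest sham sample. Among the other large rises were the chitinase-like Chil3 (3.58), the transglutaminase Tgm1 (3.23), the protease inhibitor A2m (3.19), the desmosomal Dsp (3.18), the lectin Lgals3 (3.11), the siderophore-binding Lcn2 (3.10), the interleukin-1 receptor antagonist Il1rn (3.06), the myeloid receptors Lilr4b (2.98) and Cd300lf (2.96) and the chemokine Ccl7 (2.92). Of these, the smallest adjusted *P* was that of Cd300lf (0.00043), which was at 1.3 to 1.59 CPM in sham and 10.5 to 12.8 CPM in ICH samples. A2m varied within the ICH group, with 526 CPM in replicate 3, 206 CPM in replicate 1 and 151 CPM in replicate 2. Il1rn no longer passed without young ICH replicate 3 (adjusted *P* = 0.0595), young sham replicate 1 (0.0653), 2 (0.0721) or 3 (0.0513).

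Genes of neuronal activity and signalling stood among the 15 largest falls. Nr4a2, an orphan nuclear receptor that is induced by neuronal activity, fell from 38.9, 67.3 and 19.4 CPM to 12.2, 12.7 and 9.8 CPM (log2FC −1.85 ± 0.38, adjusted *P* = 0.00755). Npas4, a transcription factor that responds to calcium entry, fell from 33, 28.9 and 54.8 CPM to 12.8, 14.7 and 13.9 CPM (a fold of 0.355, adjusted *P* = 0.004). Both were spread widely among the sham samples and narrowly among the ICH samples, and the groups did not overlap. Kcnv1, a silent potassium channel subunit, fell from 103, 132 and 128 CPM to 38.7, 63.9 and 44.9 CPM (log2FC −1.30 ± 0.17, adjusted *P* = 0.0014). Among the other large falls were the somatostatin receptor Sstr2 (−1.34), the guanylate cyclase Gucy2g (−1.28), the small nuclear RNA Rn7sk (−1.34), which restrains transcription elongation, the netrin receptor Dcc (−1.82), the sodium-proton exchanger Slc9a7 (−1.56), the cation channel Trpc5 (−1.36) and the neuropeptide gene Adcyap1 (−1.33). The last 4 depended on single samples, and without young sham replicate 2 the adjusted *P* was 0.0508 for Dcc, 0.105 for Slc9a7, 0.0775 for Trpc5 and 0.0653 for Adcyap1. The calls of Slc9a7, Trpc5 and Adcyap1 were also lost without young ICH replicate 1 (0.0646, 0.0598 and 0.117) or 3 (0.0714, 0.0631 and 0.0967), and that of Adcyap1 without young sham replicate 1 (0.0702) or 3 (0.118). Reln, the extracellular guidance protein reelin, which was chosen after its values were seen, fell from 90, 107 and 86.1 CPM to 36.2, 43.3 and 44.7 CPM (log2FC −1.19 ± 0.19, adjusted *P* = 0.00254).

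**Figure D3:**
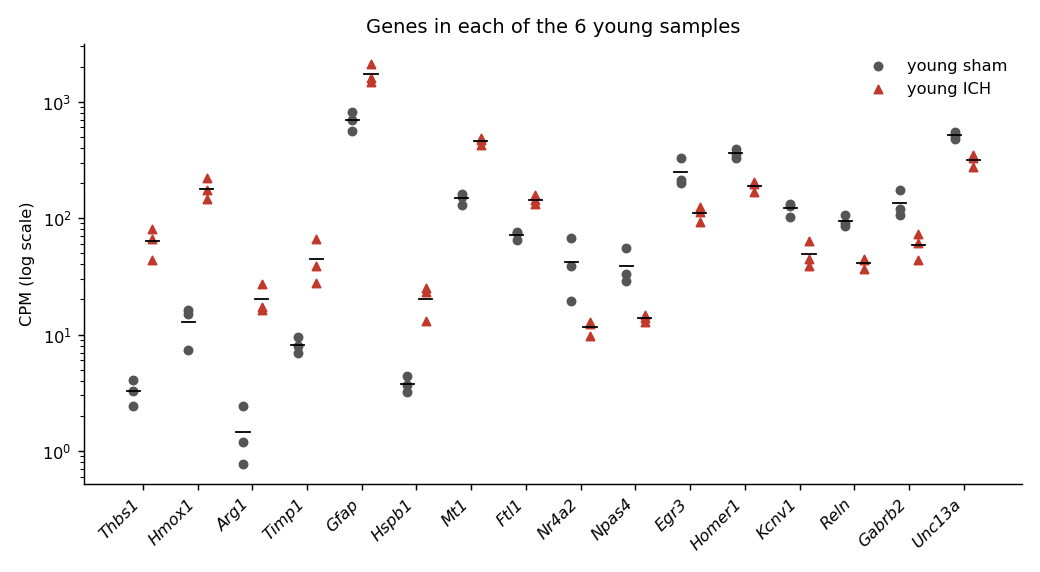
CPM (vertical axis, log scale) of 16 genes in the 3 young sham samples (gray circles) and the 3 young ICH samples (red triangles), with the group means as black lines. The 8 genes on the left were higher in every ICH sample than in every sham sample, and the 8 on the right were lower.

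Genes of matrix remodelling and wound repair rose almost throughout. Of 34 such genes, 30 were upregulated and none downregulated, with a median log2FC of 1.54 beside 0.02 for all genes, and 25 to 29 passed when any 1 of the 6 samples was left out. Beside Thbs1, these included the metalloproteinase inhibitor Timp1, which rose from 6.94, 7.9 and 9.6 CPM to 38.9, 27.7 and 65.8 CPM (log2FC 2.44 ± 0.35, adjusted *P* = 0.00187). The metalloproteinase Mmp19 (2.07), the aggrecanase family member Adamts9 (2.05) and the epithelial membrane proteins Emp1 (2.25) and Emp3 (1.24) rose as well, as did Cd44 (2.52), the receptor for hyaluronan. Timp2, the most abundant member of the list, was not called (log2FC −0.26, adjusted *P* = 0.228). Of 18 collagen genes 5 were upregulated, among them Col4a1 and Col4a2, which form the network of the vascular basement membrane. Col4a1 rose from 72.5, 68.3 and 66.8 CPM to 115, 151 and 162 CPM (log2FC 1.04 ± 0.13, adjusted *P* = 0.00137), and Col4a2 by a log2FC of 0.66 ± 0.09 (adjusted *P* = 0.00147). The fibrillar Col1a1, Col1a2 and Col3a1 had values of 0.22, 0.90 and 0.59 and did not pass the test.

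Genes of coagulation and of the plasminogen system were upregulated in 13 of 18 cases, with none downregulated and a median log2FC of 0.86. On the clotting side, these were F3, the tissue factor that starts coagulation (log2FC 0.55), the platelet-binding Vwf of endothelial cells (1.08), and the clot-stabilizing F13a1 (2.34). Vwf rose from 67.8, 47.9 and 49.2 CPM to 119, 112 and 116 CPM. On the side of clot lysis, the urokinase receptor Plaur rose from 1.44, 1.84 and 1.88 CPM to 5.63, 8.79 and 9.2 CPM (log2FC 2.20 ± 0.28, adjusted *P* = 0.00139), and Anxa2, a docking protein of plasminogen, from 17, 15.1 and 18.9 CPM to 44.6, 43.9 and 64.6 CPM (log2FC 1.58 ± 0.23, adjusted *P* = 0.00191). The protease inhibitor Serpine2, with the highest level in the list, had a log2FC of −0.01 (adjusted *P* = 0.979).

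Genes of heme breakdown and iron storage rose, and the main iron uptake receptor fell. The heme and iron list had 10 upregulated and 2 downregulated members of 19, and a median log2FC of 0.47. The light ferritin chain Ftl1 rose from 75.5, 65 and 73.9 CPM to 131, 142 and 159 CPM (log2FC 1.01 ± 0.10, adjusted *P* = 0.000546), and the heavy chain Fth1, by far the more abundant of the pair, by 0.45 ± 0.12 (adjusted *P* = 0.0195). The ferroxidase Cp, which loads iron onto transferrin, rose from 40.8, 29.9 and 39 CPM to 72.2, 74.8 and 116 CPM, and the metal importer Slc39a14 by a log2FC of 0.91. The transferrin receptor Tfrc, which takes iron up and whose mRNA is destabilized when cells hold iron, fell from 162, 160.3 and 165 CPM to 113, 136 and 96.1 CPM (log2FC −0.50 ± 0.10, adjusted *P* = 0.008). The groups did not overlap in any of these genes. The other downregulated member, Ireb2 (−0.16), which encodes an iron-sensing regulator of mRNAs, was lost whichever sample was left out (adjusted *P* of 0.0582 to 0.124). Fth1 no longer passed without young ICH replicate 3 (adjusted *P* = 0.0592) or young sham replicate 2 (0.0818). The hemoglobin gene Hbb-bs, a marker of red cells, was at 2.9, 12.6 and 3.07 CPM in sham and 19.2, 75.6 and 30.5 CPM in ICH samples (log2FC 2.75 ± 0.63, adjusted *P* = 0.0123), and its reads may be shared with near-identical globin genes.

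Metallothioneins, small proteins that bind zinc and copper, rose together with the metal importers Slc39a14 and Slc39a8 (log2FC 0.50), which made 5 upregulated and no downregulated genes of 7, with 3 without young ICH replicate 3 and 2 without young sham replicate 2. Slc39a8 was also lost without young ICH replicate 1 (adjusted *P* = 0.0549) or young sham replicate 3 (0.0608). Mt1 increased from 151, 129 and 162 CPM to 485, 427 and 464 CPM (log2FC 1.64 ± 0.14, adjusted *P* = 0.000426), with little spread among the ICH samples. Mt2 had a log2FC of 2.20 ± 0.48 at a low level, and its adjusted *P* was 0.00965 and 0.0502 without young sham replicate 2. The zinc exporter Slc30a1 and the vesicular transporter Slc30a3 had log2FC of −0.04 and −0.10 and were not called.

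Cytosolic chaperones did not move as a group. Of 17 heat shock genes, 3 were upregulated and 5 downregulated, with a median log2FC of −0.09. Without young sham replicate 2, 2 were downregulated, and leaving out young ICH replicate 2 or young sham replicate 3 left 3. The small heat shock protein Hspb1 rose from 3.68, 3.2 and 4.36 CPM to 25, 13 and 23.1 CPM (log2FC 2.44 ± 0.35, adjusted *P* = 0.00187), and its partner Bag3 (0.95) and the collagen chaperone Serpinh1 (1.11) rose too. Hsph1, a nucleotide exchange factor for Hsp70, fell from 358, 367 and 386 CPM to 284, 247 and 282 CPM (log2FC −0.45 ± 0.08, adjusted *P* = 0.0041), and the co-chaperone Dnajb1 fell by 0.28 on the log2 scale (adjusted *P* = 0.00651). The constitutive Hspa8, the most abundant of the list, fell by 0.30 (adjusted *P* = 0.0234), which did not pass without young sham replicate 1 (0.0505), 2 (0.0623) or 3 (0.076) or young ICH replicate 2 (0.0569). The inducible Hspa1a and Hspa1b had log2FC of 0.43 and 0.45 and were not called (adjusted *P* = 0.203 and 0.115).

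The promoters of 4 of these and the following genes are printed because their genes moved after ICH, belong to lists with a known response element and held a match to it. Each runs from 250 bases before to 50 bases after the start of the gene in RefSeq (GRCm38.p6), 5′ to 3′ on the strand of the gene, with the matches to the named element in capitals. Hspb1 (chr5:135887669-135887968, plus strand) and Hsph1 (chr5:149636287-149636586, minus strand) are shown with the heat shock element GAANNTTC, Mt1 (chr8:94178839-94179138, plus strand) with the metal response element TGCNCNC and Nfkbia (chr12:55492598-55492897, minus strand) with the NF-kB element GGANTTTCC.
Hspb1: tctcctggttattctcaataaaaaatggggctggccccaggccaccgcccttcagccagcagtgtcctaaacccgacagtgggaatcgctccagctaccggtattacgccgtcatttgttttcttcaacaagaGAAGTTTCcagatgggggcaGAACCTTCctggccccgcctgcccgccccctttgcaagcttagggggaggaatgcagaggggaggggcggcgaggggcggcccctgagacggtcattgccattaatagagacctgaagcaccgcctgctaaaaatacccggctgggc
Hsph1: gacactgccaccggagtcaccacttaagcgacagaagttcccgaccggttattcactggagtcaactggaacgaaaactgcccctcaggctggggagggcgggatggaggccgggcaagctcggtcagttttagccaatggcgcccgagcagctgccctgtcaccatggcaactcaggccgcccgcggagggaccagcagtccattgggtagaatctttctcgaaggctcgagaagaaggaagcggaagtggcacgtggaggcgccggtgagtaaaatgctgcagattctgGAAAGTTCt
Mt1: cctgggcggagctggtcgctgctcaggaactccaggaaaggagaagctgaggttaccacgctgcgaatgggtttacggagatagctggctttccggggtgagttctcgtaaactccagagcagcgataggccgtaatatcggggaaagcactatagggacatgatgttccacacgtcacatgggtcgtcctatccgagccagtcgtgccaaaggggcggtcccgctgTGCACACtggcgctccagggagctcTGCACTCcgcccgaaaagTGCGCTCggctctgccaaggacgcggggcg
Nfkbia: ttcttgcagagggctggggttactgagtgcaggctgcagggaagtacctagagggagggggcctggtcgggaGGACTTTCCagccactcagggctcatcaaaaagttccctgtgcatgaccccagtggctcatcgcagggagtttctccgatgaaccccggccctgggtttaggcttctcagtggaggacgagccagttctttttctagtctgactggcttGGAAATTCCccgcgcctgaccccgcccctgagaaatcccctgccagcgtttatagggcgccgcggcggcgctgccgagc
The elements were searched on both strands. Counts in lists are of genes with a match in any of their promoter entries, whereas shares of all promoters are of single entries, so that the 2 are not alike. The heat shock element matched 2 times in the promoter of Hspb1, which rose, and 1 time in that of Hsph1, which fell, and 7.86% of all 32851 mouse promoters in the table held it. Of 13 heat shock genes with a promoter in the table, 10 had it. The metal response element occurred 3 times in the promoter of Mt1. All 6 genes of the metallothionein list with a promoter in the table held this short element, which is common, with a share of 51% of all promoters. The NF-kB element matched 2 times in the promoter of Nfkbia and was held by 1.25% of all promoters and by 4 of 15 genes of the NF-kB list. The promoters of 2 more upregulated genes were searched in the same way and had 0 matches. These were Msmo1 for the sterol response element TCACNCCAC, held by 1 of 16 genes of the cholesterol list and 1.24% of all promoters, and Txnrd1, by the first of its 3 entries, for the antioxidant response element TGACNNNGC, held by 5 of 11 genes of the Nrf2 list, Txnrd1 included through another entry, and by 12.4% of all promoters. These matches describe letters in a window and were not tested against binding. Hsph1 was chosen for this display after its values were seen.

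The Nrf2 targets and glutathione genes, which respond to oxidants, contained 5 upregulated and no downregulated members of 15 (median log2FC 0.24). The thioredoxin reductase Txnrd1 rose by 0.48 ± 0.07 (adjusted *P* = 0.00229) and the aldo-keto reductase Akr1b8 by 1.92 ± 0.34 (adjusted *P* = 0.0039), both in every ICH sample relative to every sham sample. The sulfiredoxin Srxn1, the most abundant member, had a log2FC of 0.26 and was not called (adjusted *P* = 0.0645), and neither was the classical target Nqo1 (0.16). In the integrated stress response, in which translation is slowed and Atf4 is activated, 10 of 18 genes were upregulated and 1 was downregulated, and 5 were upregulated without young sham replicate 2. Trib3 (1.61), Nupr1 (1.65) and Cebpb (1.98) rose, whereas Atf4 itself had a log2FC of 0.15 (adjusted *P* = 0.27) and the asparagine synthetase Asns fell by 0.42 (adjusted *P* = 0.0173, and 0.0604 without young sham replicate 3). All 14 chaperones of the endoplasmic reticulum had positive log2FC, with a median of 0.28. Only Creld2 (0.70) and Sdf2l1 (0.64) passed with edgeR, and Sdf2l1 was lost without young ICH replicate 3 (adjusted *P* = 0.0992), which had the highest level of both, and without young sham replicate 1 (0.0689), 2 (0.088) or 3 (0.0666). The number of upregulated chaperones was 6 without young ICH replicate 2 and 1 to 3 without another sample.

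Of 17 p53 targets, 9 were upregulated and 2 downregulated, with 4 upregulated and 1 downregulated without young sham replicate 2 and 5 upregulated without young sham replicate 3. Cdkn1a, the inhibitor of the cell cycle, rose from 32.9, 20.1 and 29.5 CPM to 71.1, 60.4 and 56.3 CPM (log2FC 1.19 ± 0.15, adjusted *P* = 0.00137), and the death receptor Tnfrsf10b by a log2FC of 1.47. The RNA-binding Zmat3 fell from 144, 142 and 146 CPM to 112, 114 and 101 CPM (log2FC −0.40 ± 0.06, adjusted *P* = 0.00177). Genes of inflammasomes and cell death were upregulated in 14 of 19 cases and downregulated in none, with a median log2FC of 0.57. The cytosolic DNA sensor Aim2 (0.62) and the initiator caspase Casp8 (0.96) were among them. The number of upregulated genes in this list fell to 3 without young sham replicate 2, to 5 without young ICH replicate 3 and to 7 without young sham replicate 1. Genes of DNA replication were upregulated in 5 of 17 cases and downregulated in 1. Genes of mitosis were upregulated in 2 of 19 cases, a share of 10.5% that lay close to the 9.89% over all genes. Both counts rested on single samples, with 0 to 8 upregulated replication genes and 0 to 4 upregulated mitosis genes when 1 sample was left out, the highest of both without young ICH replicate 2. No mitosis gene passed without any 1 of the other 5 samples.

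Reactive astrocyte genes were upregulated in 26 of 28 cases, with none downregulated and a median log2FC of 1.75, and 24 to 27 passed when 1 sample was left out. The list shares Timp1, Vim, Cd44 and Emp1 with the matrix list. Gfap, the intermediate filament of astrocytes and the most abundant member, rose from 694, 563 and 811 CPM to 1602, 1481 and 2105 CPM (log2FC 1.33 ± 0.27, adjusted *P* = 0.00705). The smallest adjusted *P* in the list belonged to Srgn, a proteoglycan core protein that leukocytes also express (log2FC 1.68, adjusted *P* = 0.00093), followed by the sphingosine kinase Sphk1 (1.68, adjusted *P* = 0.00108) and the transporter Slc10a6 (3.63, adjusted *P* = 0.00137). Osmr, the oncostatin M receptor, rose from 14.1, 13.8 and 18.5 CPM to 39.6, 51.5 and 63.3 CPM. Homeostatic astrocyte markers had smaller differences. Of 18, 6 were upregulated and none downregulated, with a median log2FC of 0.21: the folate enzyme Aldh1l1 (0.68), the transcription factor Sox9 (0.81), the water channel Aqp4 (0.61), the connexin Gjb6 (0.45), and the membrane proteins Gpr37l1 (0.35) and Mlc1 (0.32). Without young sham replicate 2, 2 of the 18 passed and Aqp4 was lost (adjusted *P* = 0.0558). Gpr37l1 and Mlc1 were also lost without young ICH replicate 3 (0.0517 and 0.0785) or young sham replicate 3 (0.0576 and 0.065), and Gjb6 without young ICH replicate 1 (0.0661) or 2 (0.0541). The glutamate transporter Slc1a2, the most abundant astrocyte marker, had a log2FC of −0.30 (adjusted *P* = 0.09).

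**Figure D4:**
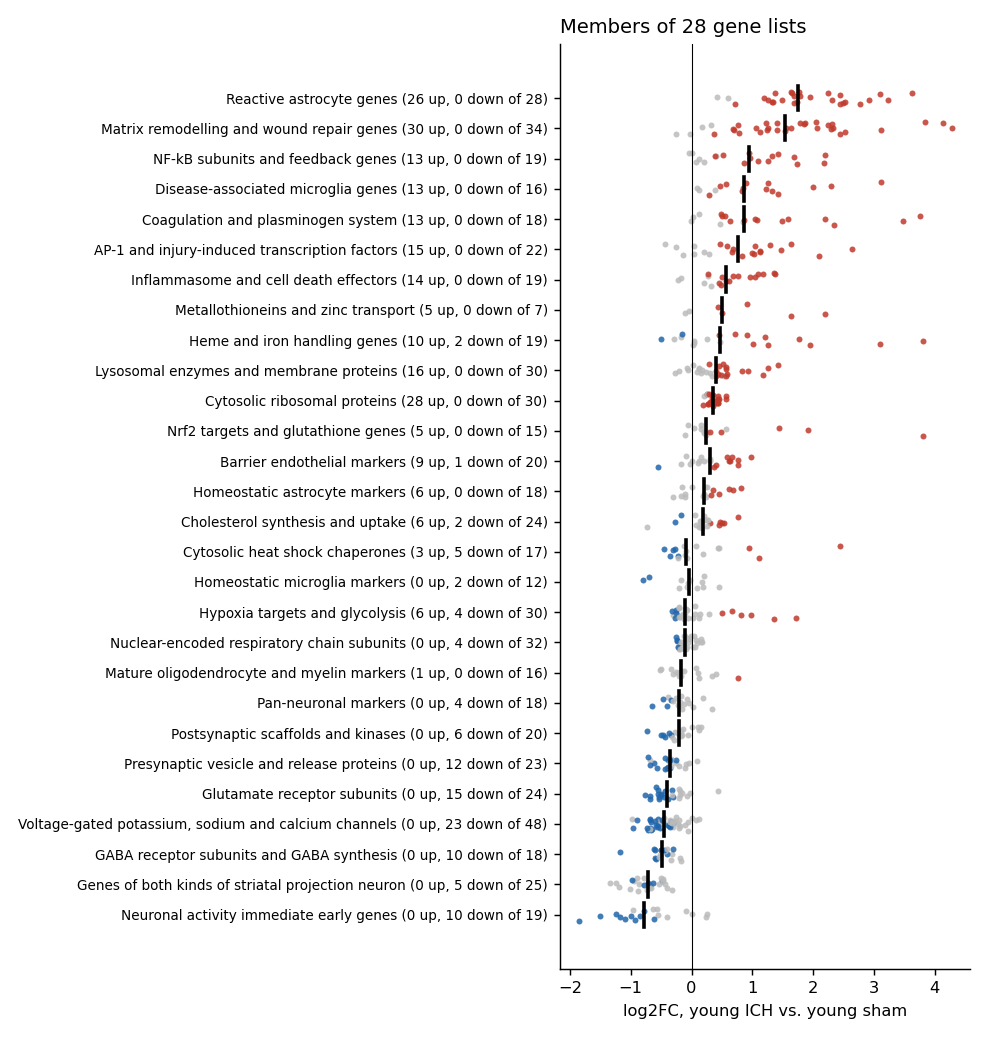
The log2FC of young ICH vs. young sham (horizontal axis) of each tested member of 28 gene lists, with upregulated DEGs in red, downregulated DEGs in blue, other members in gray and the median of each list as a black bar. The medians run from 1.75 for reactive astrocyte genes and 1.54 for matrix genes to −0.72 for striatal projection neuron genes and −0.79 for activity genes.

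Of 16 genes of disease-associated microglia, 13 were upregulated, with a median log2FC of 0.87, and 8 were without young sham replicate 2. Spp1 (osteopontin) rose from 19.5, 14.6 and 10.8 CPM to 75.4, 51.5 and 95.4 CPM, and the lysosomal tetraspanin Cd63 by a log2FC of 1.26. The lipid carrier Apoe, the most abundant of the list, had a log2FC of 0.09, and the receptor Trem2 one of 0.13, and neither was called. Of 12 homeostatic microglia markers, the purinergic receptor P2ry12 (−0.70, adjusted *P* = 0.00592) and the lectin Siglech (−0.80, adjusted *P* = 0.0159) fell, and the other 10, among them Tmem119 (−0.20) and Cx3cr1 (0.21), did not pass. Siglech was lost without young ICH replicate 3 (adjusted *P* = 0.0595) or young sham replicate 1 (0.0574) or 2 (0.054), which left 1 downregulated marker. Lysosomal genes were upregulated in 16 of 30 cases, led by Cd68 (0.92) and the protease Ctsl (0.58), with 7 left without young sham replicate 2 and 8 without young ICH replicate 3. In bulk tissue, fewer cells of a type and less RNA per cell cannot be told apart.

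Markers of blood cells were low in all samples and mostly higher after ICH. Of 14 neutrophil markers 10 were tested and 8 upregulated, among them S100a9, which was at 0.276, 0.476 and 0.396 CPM in sham and 1.83, 6.59 and 6.21 CPM in ICH samples. Markers near 0 in sham samples could pass the filter on low counts only through samples with higher levels. The neutrophil count is therefore no measure of the list. Of 12 monocyte markers 7 were upregulated, and of 10 border macrophage markers 6. Only 7 of 16 lymphocyte markers passed the filter on low counts, so that the 2 upregulated ones (Cd3e and Nkg7) are no measure of the list, and 0 to 4 were called when 1 sample was left out. Of 18 genes induced by interferon none was called, but all 18 had a positive log2FC, from 0.14 to 1.06 with a median of 0.57. The number called depended on the fit, with 3 upregulated in DESeq2, 2 in edgeR with the 6 young samples alone or upper-quartile scaling, and 1 without young ICH replicate 2 or young sham replicate 3.

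Among vascular genes, 9 of 20 markers of the barrier endothelium were upregulated and 1 was downregulated (median log2FC 0.31). The latter, Itm2a (−0.56), was lost without young ICH replicate 2 (adjusted *P* = 0.0922) or 3 (0.11) or young sham replicate 1 (0.118) or 2 (0.137). The adhesion molecules Pecam1 (0.76), Esam (0.62) and Cdh5 (0.77) and the tight junction claudin Cldn5 (0.64) rose, as did Slc16a1 (0.98) and Slc2a1 (0.67), the carriers of lactate and glucose, whereas the transporters Abcb1a (0.00) and Mfsd2a (0.16) did not pass. Genes of activated endothelium rose in 7 of 13 cases, with the glycoprotein Lrg1 (adjusted *P* = 0.00137), the vessel-destabilizing Angpt2 (1.86) and Icam1 (1.54) among them. Icam1 was lost without young ICH replicate 3 (adjusted *P* = 0.0768) or young sham replicate 1 (0.0504) or 2 (0.0858). The selectins Selp (1.32, adjusted *P* = 0.0814) and Sele (0.75, adjusted *P* = 0.429) were not called. Mural cells contributed 1 upregulated marker of 12, the receptor Pdgfrb (0.57), and fibroblasts 1 of 12, the proteoglycan Dcn (1.49), shares of 8.33% beside 9.89% over all genes. The mural count was 3 without young sham replicate 1 and 2 without young ICH replicate 1 or 2. Several fibroblast markers were highest in young ICH replicate 3, the sample with the choroid plexus genes, and their part in the result was not tested.

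Of 19 genes of NF-kB signalling, 13 were upregulated and none downregulated (median log2FC 0.95). Nfkbia, the inhibitor that NF-kB itself induces and whose promoter is printed above, rose from 27, 21.6 and 30.8 CPM to 52.5, 45.1 and 55.6 CPM (log2FC 0.95 ± 0.12, adjusted *P* = 0.00141). The death domain receptor Tnfrsf1a (1.69), the nuclear NF-kB regulator Nfkbiz (1.32) and the cytokine feedback inhibitor Socs3 (2.17) rose, while the feedback enzyme Tnfaip3, which carries the same promoter element, had a log2FC of 0.08 (adjusted *P* = 0.803). Of 22 transcription factors and related genes of tissue injury, 15 were upregulated and none downregulated (median log2FC 0.76). The smallest adjusted *P* values belonged to the small Maf proteins Maff (1.63, adjusted *P* = 0.000546) and Mafk (0.99, adjusted *P* = 0.000745). Atf3 rose from 1.24, 1.36 and 1.42 CPM to 5.95, 8.49 and 10.7 CPM, and Stat3 from 83.8, 88.5 and 105 CPM to 174, 181 and 209.9 CPM. Within the AP-1 family, Jun (0.83) and Fosl1 (0.67) rose, whereas Junb, Jund and Fosl2 had log2FC of 0.04, 0.21 and 0.04 and were not called.

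Cytokines and chemokines were low and variable. Of 15 cytokine genes 10 were upregulated and 1 downregulated, with a median log2FC of 2.04. The smallest adjusted *P* values among them were those of Clcf1 (2.49) and Il11 (3.08), which signal through gp130, and of Csf1 (0.90), the growth factor of microglia. The alarmin Il33, the most abundant cytokine gene, rose from 89.2, 68.2 and 91 CPM to 137, 165 and 222 CPM. Il1b (2.04, adjusted *P* = 0.0604) and Tnf (1.10, adjusted *P* = 0.217) did not pass, and the activin subunit Inhba fell by 1.07 on the log2 scale. Chemokines were upregulated in 9 of 20 cases and downregulated in 1. Ccl6 (2.49) and Ccl9 (2.41), which are made by myeloid cells, rose with little spread, and Ccl2, which attracts monocytes, rose from 2.49, 1.71 and 3.46 CPM to 8.56, 14.8 and 19.4 CPM, a call lost without young ICH replicate 3 (adjusted *P* = 0.0614) or young sham replicate 1 (0.0599) or 2 (0.0902). Cx3cl1, the membrane-bound chemokine of neurons and the most abundant of the list, fell from 674, 715 and 795 CPM to 473, 424 and 420.1 CPM (log2FC −0.73 ± 0.11, adjusted *P* = 0.00195). Without young ICH replicate 3, young sham replicate 2 or young sham replicate 3, 5 cytokines were upregulated, and without young sham replicate 2, 4 chemokines were, with 5 without young ICH replicate 3 or young sham replicate 1. Of 18 complement genes 10 were upregulated, among them the anaphylatoxin receptors C5ar1 (2.01) and C3ar1 (1.43) and the C1q chain C1qb (0.53). C3 itself was at 220.5 CPM in young ICH replicate 3 and between 3.27 and 27.4 CPM in the other samples, and was not called (adjusted *P* = 0.182). Of 16 genes of eicosanoid synthesis 6 were upregulated, including the terminal synthase Ptges (1.81), and 3 without young sham replicate 2, whereas the cyclooxygenase Ptgs2 was not called (0.42, adjusted *P* = 0.155).

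Genes of cytosolic ribosomal proteins rose by small and similar amounts. All 30 on the list had a positive log2FC, from 0.18 to 0.57 with a median of 0.35, and 28 were upregulated. Rplp0, a protein of the ribosomal stalk, rose from 168, 160.2 and 164 CPM to 235, 228 and 265 CPM (log2FC 0.57 ± 0.08, adjusted *P* = 0.0016). When 1 sample was left out, 23 to 30 passed. Many ribosomal protein genes have processed pseudogenes that can share reads with them. The nuclear genes of oxidative phosphorylation did not share this shift. Of 32, none was upregulated and 4 were downregulated, the complex II subunit Sdha (−0.24), the ATP synthase subunit Atp5a1 (−0.26), Uqcrc2 (−0.23) and Ndufa9 (−0.24), and the median log2FC was −0.11. The downregulated share of 12.5% lay close to the 9.23% over all genes. The count was 13 without young ICH replicate 1 and 1 without young ICH replicate 3 or young sham replicate 2 or 3, and 0 with the 6 young samples alone.

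Of 30 glycolysis and hypoxia genes, 6 (20%) were upregulated and 4 (13.3%) downregulated, beside 9.89% and 9.23% over all genes. The lactate exporter Slc16a3 (1.35), the hexokinase Hk2 (0.81) and the vasodilator Adm (1.72) rose, and the enzymes Pgam1 (−0.27), Aldoa (−0.26), Ldha (−0.26) and Pfkp (−0.32) fell, but 2 genes of the list were downregulated without young ICH replicate 3, 1 without young sham replicate 2 or 3, and 0 with the 6 young samples alone. Hk2 was lost without young ICH replicate 3 (adjusted *P* = 0.06) or young sham replicate 2 (0.0649). Vegfa, a target of hypoxia signalling, had a log2FC of −0.20 and was not called (adjusted *P* = 0.133). Of 24 genes of cholesterol synthesis and uptake, 6 (25%) were upregulated, led by Msmo1 (0.54) and Mvk (0.50), and 2 (8.33%) were downregulated, among them the transcription factor Srebf2 (−0.18). The downregulated share lay close to the 9.23% over all genes. Without young sham replicate 2, 3 were upregulated. No gene of the list was downregulated without young ICH replicate 1 or 3 or young sham replicate 2 or 3, and Srebf2 was lost without any 1 of the samples other than young ICH replicate 2 (adjusted *P* of 0.0712 to 0.102).

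Genes that neurons switch on with activity fell in 10 of 19 cases and rose in none, with a median log2FC of −0.79. Egr3 fell from 201, 212 and 329.6 CPM to 92.7, 124 and 112 CPM (log2FC −1.18 ± 0.17, adjusted *P* = 0.00198). Homer1, a scaffold of metabotropic glutamate receptors, fell from 329, 358 and 393 CPM to 166, 203 and 198 CPM (log2FC −0.93 ± 0.12, adjusted *P* = 0.00137). The group means differed by more than the spread within groups in both genes. Egr1 (−1.09), Nr4a1 (−1.24) and the growth factor Bdnf (−0.61) were called lower, whereas Fos, a member of the same activity program that other cell types also induce, was at 16.7, 26.4 and 42.6 CPM in sham and 21.2, 28.3 and 36.4 CPM in ICH samples and was not called (log2FC 0.01, adjusted *P* = 0.99). Arc ranged from 68.7 to 291 CPM among sham samples and was not called (−0.96, adjusted *P* = 0.0829). Without young ICH replicate 1 or young sham replicate 3, 6 of the 19 fell. Bdnf was lost without young ICH replicate 1 (adjusted *P* = 0.0832) or 3 (0.0905) or young sham replicate 2 (0.0789) or 3 (0.0932).

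Receptor genes for both main transmitters were lower. Of 24 glutamate receptor subunits, 23 had a negative log2FC and 15 were downregulated (median −0.40). Grin2b, an NMDA receptor subunit, fell from 500.1, 713 and 569.9 CPM to 369.5, 369 and 316 CPM (log2FC −0.76 ± 0.13, adjusted *P* = 0.00381), and all 4 AMPA receptor subunits were called lower, by a log2FC of −0.30 for Gria1 to −0.45 for Gria3. Gria1 was lost without any 1 of the samples other than young sham replicate 3 (adjusted *P* of 0.0554 to 0.123), Gria2 (0.0638), Gria3 (0.0553) and Gria4 (0.0686) without young sham replicate 2, and Gria4 without young sham replicate 3 (0.0513). None of the 4 passed with the 6 young samples alone (adjusted *P* of 0.0519 to 0.0639) or after the trend on gene length described below was removed. The obligatory NMDA receptor subunit Grin1 was not called (−0.19, adjusted *P* = 0.253). All 18 GABA receptor and synthesis genes had a negative log2FC and 10 were downregulated (median −0.48). Gabrb2, a beta subunit of the GABA-A receptor, fell from 107, 174 and 120.4 CPM to 60.7, 72.6 and 43.5 CPM (log2FC −1.18 ± 0.23, adjusted *P* = 0.00585). The GABA-synthesizing enzyme Gad1 fell (−0.62), and Gad2 did not pass (−0.52, adjusted *P* = 0.25). Without young sham replicate 2, 4 glutamate receptor and 6 GABA genes were downregulated, and without young ICH replicate 3, 9 and 6.

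Of 48 voltage-gated channel genes, 45 had a negative log2FC and 23 were downregulated (median −0.46). Kcnq5, a subunit of the potassium current that limits repetitive firing, fell from 134, 147 and 147 CPM to 78.4, 101 and 81.1 CPM (log2FC −0.71 ± 0.10, adjusted *P* = 0.0017), and its partner Kcnq3 by 0.69 on the log2 scale. The sodium channel Scn2a (−0.60) and the T-type calcium channel Cacna1i (−0.48) fell too. The count was 9 without young sham replicate 2 and 13 without young ICH replicate 3.

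In the presynaptic terminal, 12 of 23 genes were downregulated and none upregulated (median −0.36). Unc13a, which primes vesicles for release, fell from 477, 553 and 508 CPM to 274, 349 and 329.7 CPM (log2FC −0.69 ± 0.09, adjusted *P* = 0.0014). The active zone protein Pclo (−0.72) fell, while the complexin Cplx1 (−0.09) was not called. On the postsynaptic side, 6 of 20 genes were downregulated (median −0.21), among them the inhibitory synapse adhesion protein Nlgn2 (−0.37), and the abundant kinase Camk2a had a log2FC of 0.15 and was not called. The presynaptic count was 4 without young sham replicate 2, 5 without young ICH replicate 3 and 6 without young sham replicate 3.

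General neuronal markers had smaller differences. Of 18, 4 were downregulated, with a median of −0.20, and 2 without young ICH replicate 3 or young sham replicate 2. Syt1, the calcium sensor of release, fell from 1647, 1901 and 1831 CPM to 1203, 1323 and 913 CPM (log2FC −0.65 ± 0.12, adjusted *P* = 0.00565), and the neuronal tubulin Tubb3 by 0.41 on the log2 scale. Rbfox3, which encodes NeuN, was at 248, 275 and 309 CPM in sham and 284, 284 and 243 CPM in ICH samples, and was not called (−0.04, adjusted *P* = 0.829). The neurofilament genes Nefl, Nefm and Nefh had log2FC of −0.13, 0.02 and 0.19 and were not called.

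All 25 genes of striatal projection neurons had a negative log2FC, with a median of −0.72, and 5 were downregulated, with 3 left whichever sample was left out. The spread between samples was wide, but the groups did not overlap in 17 of the 25, beside 35% of all genes tested. Cnr1, the cannabinoid receptor, fell from 338, 243 and 250.1 CPM to 116, 165 and 141 CPM (log2FC −0.98 ± 0.16, adjusted *P* = 0.00272), and the calcium release channel Itpr1 (−0.72), Arpp19 (−0.64), Strn (−0.78) and Foxp1 (−0.49) were called lower as well. The calls of Strn (adjusted *P* of 0.0595 to 0.118) and Foxp1 (0.0511 to 0.113) were lost whichever of the 6 samples was left out. Drd1, the dopamine receptor of the direct pathway, was at 126, 85.5 and 71.1 CPM in sham and 51.4, 18.2 and 77.4 CPM in ICH samples (log2FC −0.94, adjusted *P* = 0.299). Penk, the enkephalin precursor of the indirect pathway, was at 418, 266 and 231 CPM in sham and 164, 40.1 and 259 CPM in ICH samples (log2FC −0.98, adjusted *P* = 0.31). In both genes the groups overlapped and young ICH replicate 2 was far below the others. Neither the 9 direct-pathway genes (median −0.70, 0 downregulated) nor the 8 indirect-pathway genes (median −0.82, 1 downregulated, Grik3) separated further. Of 16 interneuron genes 3 were downregulated, a share of 18.8% beside 9.23% over all genes. Sst, the neuropeptide somatostatin, fell from 118, 111 and 112 CPM to 66.2, 83.7 and 82 CPM (log2FC −0.56, adjusted *P* = 0.0094), Lhx6 (−0.41) and Pthlh (−1.42) were called lower, and Pvalb (0.19) and Chat (−0.72, adjusted *P* = 0.324) were not called. Lhx6 was lost without any 1 of the samples other than young ICH replicate 2 (adjusted *P* of 0.0647 to 0.135). Of 12 cortical projection neuron genes, Nrn1 alone was downregulated (−0.65), a share of 8.33% close to the 9.23% over all genes, and the median was −0.50. The count was 6 without young ICH replicate 2, the sample with the lowest striatal genes, and 2 without young sham replicate 1.

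**Figure D5:**
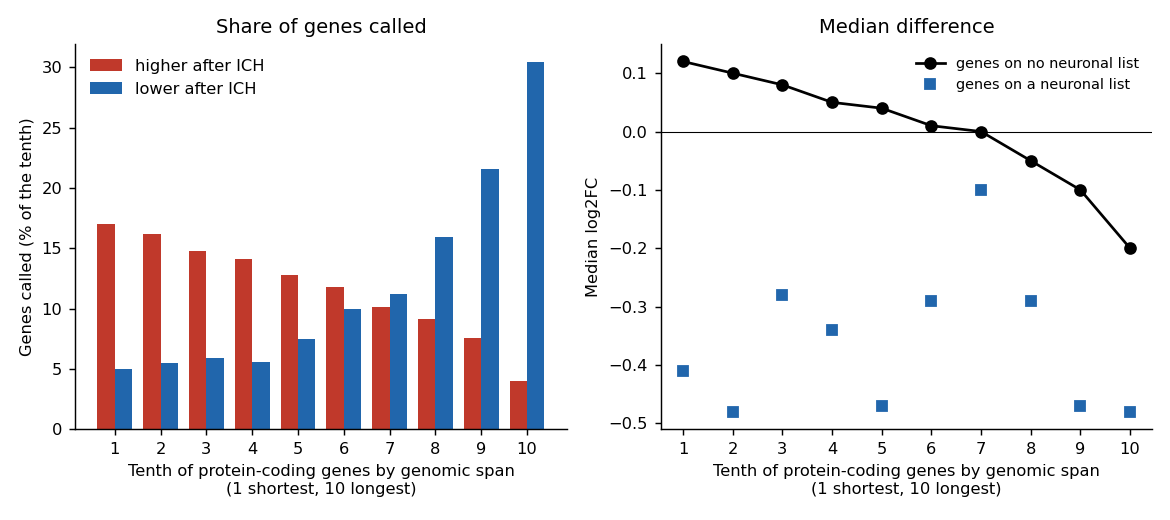
Protein-coding genes in 10 classes of about 1568 genes ordered by genomic span, from the shortest (1) to the longest (10), with the percentage of upregulated (red) and downregulated (blue) DEGs on the left and the median log2FC of genes on a neuronal list (squares) and on none (circles) on the right. The downregulated share rises from 4.97% to 30.4% and the median of genes on no neuronal list falls from 0.12 to −0.20.

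The response varied with the length of the gene in the genome, a measure chosen after the values were seen. Protein-coding genes were ordered by span and divided into 10 classes. Among the 1568 shortest, which span at most 4571 bases, 17% were upregulated and 4.97% downregulated, with a median log2FC of 0.12. Among the 1568 longest, from 137267 bases upwards, 4.02% were upregulated and 30.4% downregulated, with a median of −0.22. The medians of the longest class relative to the sham mean were 0.00, 0.03 and −0.05 in sham samples and −0.21, −0.20 and −0.26 in ICH samples, so that the groups did not overlap. Genes of the neuronal lists had negative medians in all 10 classes, with −0.41 for 18 genes in the shortest class and −0.48 for 84 in the longest. After each sample's trend on genomic span was removed, 2 glutamate receptor genes, 5 GABA genes, 12 channel genes, 10 presynaptic genes and 2 postsynaptic genes were downregulated. Syt1 (adjusted *P* = 0.0671), Dlgap2 (0.0607), Nlgn1 (0.396) and Dlg2 (0.833) were among the calls lost. So were all AMPA receptor subunits, Gria1 (0.615), Gria2 (0.0524), Gria3 (0.143) and Gria4 (0.633). Whether RNA quality or the cell types present moved with gene length was not tested.

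Among 16 myelin and oligodendrocyte genes, 1 was upregulated, the matrix protein Hapln2 (0.76), a share of 6.25% beside 9.89% over all genes, and the median was −0.17. Mbp was at 3412, 1992 and 2661 CPM in sham and 3044, 2582 and 3099 CPM in ICH samples (log2FC 0.11, adjusted *P* = 0.69). None of 11 progenitor markers passed, and 2 did without young ICH replicate 2. Among 16 glucocorticoid-responsive genes 5 were upregulated, including the kinase Map3k6 (1.49 ± 0.12, adjusted *P* = 0.000426), Pdk4 (1.11) and Fkbp5 (0.72), and the receptor Nr3c1 was called lower (−0.32), a call that was lost without young ICH replicate 1 (adjusted *P* = 0.0683) or 3 (0.12) or young sham replicate 2 (0.141) or 3 (0.109). The upregulated count was 8 without young ICH replicate 2 and 3 without young ICH replicate 1 or young sham replicate 2. Of 18 clock genes 3 were downregulated, Arntl (−0.36), Npas2 (−0.45) and Cry2 (−0.23), and 1 was upregulated. These shares were 16.7% and 5.56%, beside 9.23% and 9.89% over all genes. Cry2 was lost without young ICH replicate 3 (adjusted *P* = 0.129) or young sham replicate 1 (0.0879), 2 (0.112) or 3 (0.106), and no clock gene was upregulated without young ICH replicate 1 or 3 or young sham replicate 2. Among 17 genes of water and ion transport, the astrocytic adhesion and pump protein Atp1b2 (0.52) was among 4 that rose (2 without young sham replicate 2), and the sodium-calcium exchanger Slc8a1 (−0.75) was among 2 that fell. The upregulated share was 23.5% beside 9.89% over all genes. The downregulated share of 11.8% lay close to the 9.23% over all genes. The lower count was 3 without young ICH replicate 2 and 1 without young ICH replicate 1 or 3 or young sham replicate 2 or 3.

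The same contrast in aged mice gave no gene with a different response at an adjusted *P* under 0.05 in edgeR's test of the interaction of age and ICH. At an unadjusted *P* under 0.05, 606 genes (2.82%) passed this test, a smaller share than the threshold alone would give if no gene differed. DESeq2 called 1 gene, Rn7sk. This RNA fell in young mice from 7.93, 11.6 and 7.46 CPM to 3.37, 3.46 and 3.81 CPM and had a log2FC of 0.41 in aged mice (interaction log2 1.75, adjusted *P* = 0.479). Of the 4110 DEGs of young mice, 4056 (98.7%) had the same sign in aged mice. The DEGs were selected for their difference in young mice, and the share over all genes tested was not computed. The median log2FC was −0.79 in young and −0.02 in aged mice for the activity genes, and −0.17 and −0.77 for the oligodendrocyte genes. Other lists also had unlike medians, among them the interferon-induced genes (0.57 and 1.36) and the red blood cell markers (2.39 and 0.17). These differences were tested only gene by gene. An unadjusted interaction *P* under 0.05 was found in 5 of 19 activity, 8 of 16 oligodendrocyte, 0 of 18 interferon-induced and 2 of 5 red cell genes.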

How the data were processed

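RNA-seq was performed by the authors on 12 striatal samples, each a pool of 2 or 3 mice, with TRIzol extraction and the NEBNext Ultra RNA kit. Per the labels' processing notes, reads were aligned with HISAT2 and counted with featureCounts (Subread) on GRCm38.p6. No source used here gives the strand setting, and overlapping and antisense genes cannot be told apart. The deposited table held raw counts per gene and FPKM values made by the authors. The FPKM columns and the authors' fold changes and *P* values were not used in any test.

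Counts of 54833 genes were analysed with edgeR 4.0.16 and limma 3.58.1 in R 4.3.3. Of these, 387 carried no gene symbol, 14946 genes had no count, and 21495 passed the filter on low counts (minimum count 10). Libraries were scaled by TMM, and a quasi-likelihood model with a mean for each of the 4 groups was fitted to all 12 samples. Genes with a Benjamini-Hochberg adjusted *P* under 0.05 over all genes tested were called. CPM are scaled to the normalized library size. Total counts per young sample ranged from 29861058 to 37785160. The fit was tested on simulated data. DESeq2 1.42.0, other scalings, filters and left-out samples were alternatives. Genes were named by rule: the 15 largest rises and falls among called genes with a mean of at least 5 CPM and no overlap between groups, and in each list the 4 members with the smallest *P* in each direction and the most abundant member. Others were named after their values were seen. The comparison and the gene lists were chosen with earlier results of these data known. Promoters are from RefSeq. Some genes that met the rule are not reported here.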

Additional observations from a re-analysis of the deposited data

How the results depend on the processing

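The 2125 upregulated and 1985 downregulated genes became 1861 and 751 when the study's thresholds were applied to the edgeR fit of all 12 samples. These are a fold change above 1.5 or below 0.67 with an unadjusted *P* under 0.05. The study itself used DESeq2. The same thresholds on edgeR's interaction of age and ICH gave 336 genes. This is not the study's own rule for an interaction, which asked for no *P* of the interaction. With the same fold and an adjusted *P*, 1264 genes were upregulated and 453 downregulated in young mice. With the 6 young samples alone 1326 and 1116 were called. In this fit 4 presynaptic and 8 glutamate receptor genes were downregulated, and 4 p53 targets and 9 genes of cell death upregulated. Leaving out 1 sample gave 965 to 2184 upregulated and 893 to 2041 downregulated genes. DESeq2 called 1 gene for the interaction. With the replicate number as a block, 1867 and 1635 genes were called. Of the lists, the block gave 3 upregulated interferon-induced genes in place of 0 and 3 downregulated genes of striatal projection neurons in place of 5. The correlations of the deviations of same-numbered samples were 0.0741, 0.165 and −0.222, so that the numbers were not taken to pair the samples. The total counts of upregulated and downregulated genes under the other scalings and filters stayed within 1.5 times. Counts within lists did not all do so, with 8 upregulated Nrf2 genes in place of 5 under upper-quartile scaling. Over all alternatives, 230 counts within lists changed by more than 1.5 times or to or from 0, and 1450 did not. Over all alternatives, 803 medians of gene lists moved by less than the spread between replicates and 37 by more. Among the genes named, Dlg2 turned from a log2FC of −0.44 to 0.03 after the trend on genomic span was removed, an alternative added after the data were seen. The cause was not tested.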

Other observations

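Gene families named by a shared symbol, chosen after the values were seen, moved unevenly. Of 20 gamma-protocadherin genes (Pcdhg), 9 were downregulated and none upregulated, with a median log2FC of −0.43, and their shared last exons make counts of single members uncertain. Of 48 ubiquitin-specific protease genes (Usp), 16 (33.3%) were downregulated and 1 was upregulated, beside 11.8% and 11.7% of all protein-coding genes. Of 33 vacuolar sorting genes (Vps), 11 (33.3%) were downregulated and none upregulated, and of 65 Rab genes 21 (32.3%) and 5. Genes of the mitochondrial ribosome (Mrpl) gave 3 upregulated (6.25%) and no downregulated of 48, beside 32 (65.3%) and 0 of 49 for the cytosolic Rpl genes.

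Of 13 protein-coding genes of the mitochondrial genome, 3 were upregulated, mt-Nd1 (0.33), mt-Atp6 (0.59) and mt-Nd6 (0.51), and 1 was downregulated, mt-Nd4l (−1.14). The nuclear RNA Neat1 rose from 187, 149 and 194 CPM to 304, 305 and 502 CPM (log2FC 1.07, adjusted *P* = 0.00621 with edgeR), and H19 had a log2FC of 2.22. The cause of these differences was not tested.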
